A study of Homo sapiens with 14 samples.

Results

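The hypoxia-inducible factor (HIF) system is described here through 44 listed genes, which encode its subunits, its regulators and its known targets outside glycolysis. They were found by symbol, current or former, in the array's annotation, and 41 of the 44 have a value, each from 1 probe set. Of these, 30 lie above the expression filter used for every count, which 11050 of the 18417 genes on the array passed. CA9 and FUT11 have no listed probe set, and the probe set of MIF is shared with a second gene, so these 3 have no value.

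The cells are a line from a human gastric carcinoma, MKN28 in the labels and MKN74 in the paper, and each of 14 conditions was measured on a single microarray. Parental cells were left untreated for 2 days, kept in 1% oxygen for 1 or 2 days, or given 10 ng/ml TGFβ for 1 or 2 days. A derivative line carrying a Snai1-ER transgene (Snai1ER), in which 4-hydroxytamoxifen (4-OHT) switches on the Snai1 fusion protein, was left untreated for 4 days or given 20 ng/ml 4-OHT for 2 or 4 days. All 6 treatments were repeated under knockdown of ANGPTL4, by an shRNA in the Snai1ER line that the paper describes as induced by doxycycline, while untreated cells were not measured under knockdown. The paper describes the knockdown of the parental line as siRNA, and the labels do not name its means. No condition was repeated, so a difference between single arrays has no replicate check, and each value below is a log2 level unless it is called a fold or a difference. The untreated array is of day 2 in the parental line and of day 4 in the Snai1ER line. Day 1 of hypoxia or TGFβ and day 2 of 4-OHT therefore differ from it in time as well as in treatment.

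In cells with enough oxygen, prolyl hydroxylases mark the HIF alpha subunits and the VHL ubiquitin ligase has them destroyed, so the pathway is switched mainly at the level of protein stability and not of subunit mRNA. When oxygen falls, HIF-1α or HIF-2α pairs with ARNT and binds promoters and enhancers at a short motif, the hypoxia response element, whose core is ACGTG or GCGTG. Targets include secreted factors that act on vessels, brakes on growth and on mitochondria, transcriptional repressors and enzymes of the endoplasmic reticulum. In carcinoma lines the same targets are widely used as a readout of low oxygen.

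The arrays were first checked. Of 7 epithelial markers all 7 were above the filter, with mean levels of 8.11 to 11.7. Above it were also 0 of 5 endothelial, 0 of 3 leukocyte and 1 of 5 fibroblast markers (COL1A1, 6.91). The level of SNAI1 was 5.48 to 6.07 on the 9 parental arrays and 8.74 to 9.78 on the 5 of the Snai1ER line. ANGPTL4 read 4.97 to 5.39 on all 14 arrays, below the filter of 5.90, so its probe set does not check the knockdown. The 2 TGFβ arrays without knockdown have deposited medians of 5.19 and 5.23, against 5.997 to 6.162 on the other 12. All values are therefore given after quantile normalization of the 14 arrays, with the deposited scale beside the results on TGFβ. The hypoxia day 1 array with knockdown stands apart from the rest. The SD of its genes about the average of the remaining arrays was 0.719, where the other 13 had 0.272 to 0.564.

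The promoters of the genes that separate hypoxia from TGFβ below show how the motif is placed. RefSeq promoters (GRCh38.p14) were found for 36 of the 44 genes. The 250 bases before the outermost start among these promoters were searched for ACGTG and GCGTG on both strands. For RORA the 1 start found lies inside the gene (window chr15:60627531-60627780, gene chr15:60488284-61229302). RORA counts below as a gene with neither motif. The palindrome CACGTG holds ACGTG on each strand and also is the E-box of other factors. At least 1 of these motifs stood in 30 of the 36 (83.3%), against 43.1% of 27305 genes in the table. The genes were listed as known targets and regulators of HIF, so this higher share is no independent result. Among the 13 genes with a promoter that rose on hypoxia it stood in 11 (84.6%), and among the 11 that were above the filter and did not rise, in 8 (72.7%). For ACGTG alone the shares were 52.8% of the listed genes and 18.6% of all. The 6 sequences shown belong to genes that limma called higher on hypoxia than on TGFβ, and capitals mark ACGTG or GCGTG on either strand. For NDRG1 and VEGFA, which were also called, no promoter was found.
ANKRD37, chr4:185396591-185396840, plus strand: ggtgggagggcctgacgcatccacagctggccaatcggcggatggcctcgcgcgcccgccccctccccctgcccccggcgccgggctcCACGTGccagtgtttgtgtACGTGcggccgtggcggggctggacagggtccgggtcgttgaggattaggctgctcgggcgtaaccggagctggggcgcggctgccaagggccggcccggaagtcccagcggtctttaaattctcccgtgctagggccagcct
ZNF292, chr6:87155315-87155564, plus strand: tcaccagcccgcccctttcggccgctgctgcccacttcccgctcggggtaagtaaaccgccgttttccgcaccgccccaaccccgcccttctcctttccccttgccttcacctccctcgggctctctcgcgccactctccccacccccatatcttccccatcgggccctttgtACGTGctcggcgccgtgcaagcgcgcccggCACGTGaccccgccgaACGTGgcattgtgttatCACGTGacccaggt
INSIG2, chr2:118088221-118088470, plus strand: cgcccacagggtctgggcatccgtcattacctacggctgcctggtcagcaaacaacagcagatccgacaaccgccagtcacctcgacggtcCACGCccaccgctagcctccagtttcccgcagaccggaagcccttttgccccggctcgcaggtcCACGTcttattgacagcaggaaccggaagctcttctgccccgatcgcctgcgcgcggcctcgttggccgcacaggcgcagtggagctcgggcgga
ERO1A, chr14:52695559-52695808, minus strand: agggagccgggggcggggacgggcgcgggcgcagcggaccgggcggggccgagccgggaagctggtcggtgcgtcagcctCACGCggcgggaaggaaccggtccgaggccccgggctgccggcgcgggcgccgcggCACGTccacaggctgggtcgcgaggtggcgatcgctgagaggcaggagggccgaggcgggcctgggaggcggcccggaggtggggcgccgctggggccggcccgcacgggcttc
FAM162A, chr3:122383932-122384181, plus strand: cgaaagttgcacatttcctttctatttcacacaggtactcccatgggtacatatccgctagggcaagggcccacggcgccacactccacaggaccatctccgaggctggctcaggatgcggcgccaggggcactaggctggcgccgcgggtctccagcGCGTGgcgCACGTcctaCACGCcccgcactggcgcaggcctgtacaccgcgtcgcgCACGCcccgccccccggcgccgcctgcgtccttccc
ARRDC3, chr5:91383318-91383567, minus strand: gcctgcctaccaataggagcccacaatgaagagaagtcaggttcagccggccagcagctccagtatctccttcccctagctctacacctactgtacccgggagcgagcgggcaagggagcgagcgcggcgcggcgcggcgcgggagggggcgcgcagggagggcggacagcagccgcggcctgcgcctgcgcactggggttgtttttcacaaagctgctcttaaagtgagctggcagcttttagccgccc
ANKRD37 holds 1 CACGTG and a further ACGTG, and ZNF292 holds 4 sites close to its start, of which 2 are CACGTG. INSIG2 and ERO1A each hold 1 ACGTG and 1 GCGTG, while FAM162A holds 1 ACGTG and 3 GCGTG. ARRDC3 holds neither in this window. A match is a match of letters and no evidence of binding.

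Hypoxia raised many of the listed genes and lowered none of them by at least 1.5-fold on both days. On day 2 alone HIF1A was lower by that much, 1 of 30 against 4.7% of all genes. Of the 30 genes above the filter, 15 were at least 1.5-fold above the untreated parental array on both days, against 3.02% of all genes, and 0 were at least 1.5-fold below it on both, against 1.95% of all genes. The median difference of the 30, averaged over the days, was 0.75, against -0.03 over all genes. The genes that rose were NDRG1, ANKRD37, CCNG2, INSIG2, ARRDC3, BHLHE40, ANKZF1, PLAUR, ZNF292, ERO1A, CITED2, EFNA1, MXI1, ADM and DDIT4. On the deposited scale 14 of these rose, with DDIT4 just short of the rule on day 2 (1.49-fold). Each array averages over a culture, so a change in every cell and a larger change in some cells cannot be told apart. At 2-fold on both days the count was 9, against 0.805% of all genes, and 0 fell, against 0.19%. Day 2 differed from day 1 by 1.5-fold for 0 of the 30, against 1.07% of all genes higher and 1.06% lower.

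The genes of the HIF subunits and their regulators did not share in this, with the exception of CITED2. HIF1A, which encodes HIF-1α, read 11.09 untreated and 10.70 and 10.44 on hypoxia days 1 and 2, and 10.84 and 10.64 with knockdown. These 4 hypoxia values are the lowest of the 14 arrays, and the range over the other 10 was 11.02 to 11.35. EPAS1, which encodes HIF-2α, read 10.20 untreated, 10.14 and 10.40 on hypoxia, and 9.02 and 10.09 with knockdown. ARNT, the shared partner of both, read 8.77 untreated, 8.84 and 8.93 on hypoxia, and 8.65 and 9.52 with knockdown. Only the last of these, on day 2 with knockdown, stood more than 1.5-fold above the untreated array.
VHL, the substrate-binding part of the ubiquitin ligase, read 6.51 untreated, 6.62 and 6.42 on hypoxia and 5.85 and 6.27 with knockdown. HIF1AN, the asparagine hydroxylase that blocks HIF from its co-activators, read 6.40 untreated, 6.53 and 6.13 on hypoxia, and 5.08 and 6.06 with knockdown. Both had their lowest value of 14 on the hypoxia day 1 array with knockdown, the array that stands apart, where both lie below the filter level of 5.90. CITED2, which competes with HIF for the co-activators CBP and p300 and is itself a HIF target, rose from 7.83 to 8.66 and 8.95 (1.77-fold and 2.18-fold), and read 7.58 and 8.41 with knockdown. Above the filter were also 12 further regulators of the pathway, such as its co-activators and ubiquitin ligase subunits. Of these 0 rose and 0 fell on hypoxia, against 3.02% and 1.95% of all genes.

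**Figure D1:**
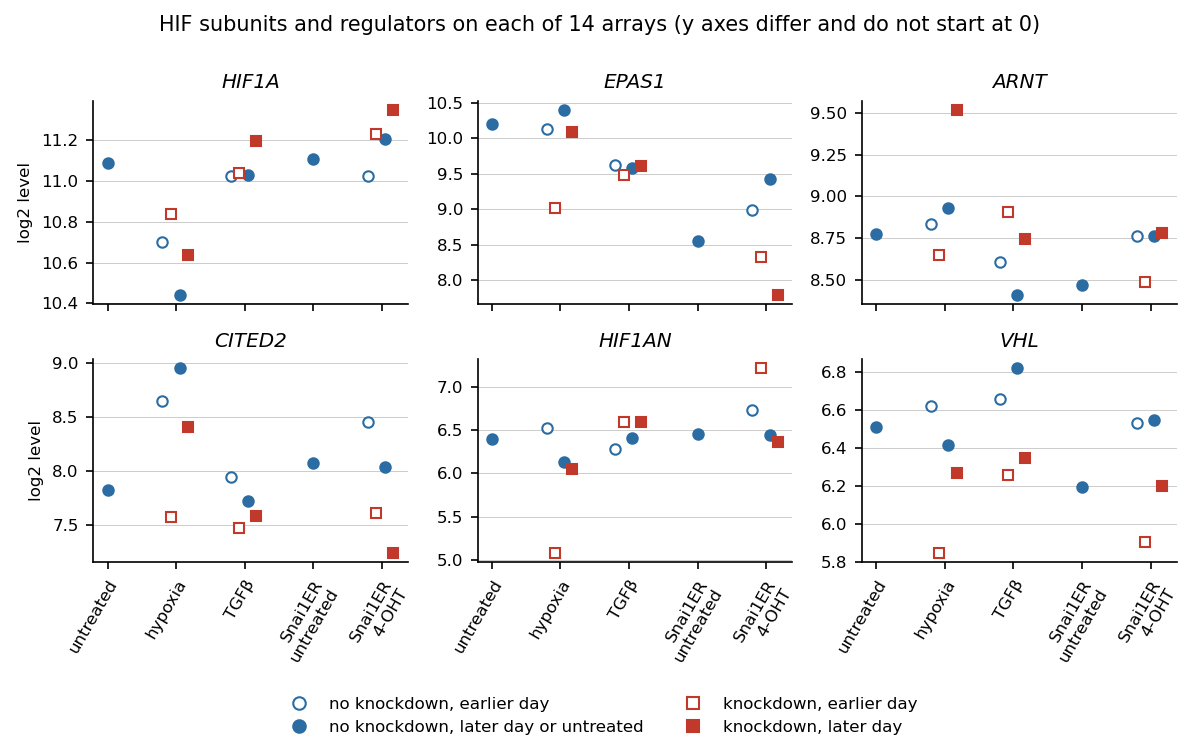
Levels of 6 genes of HIF subunits and regulators (log2, y axes not starting at 0) on each of the 14 arrays, by line and treatment, without (blue circles) and with (red squares) ANGPTL4 knockdown and with open symbols for the earlier day. HIF1A lies between 10.44 and 10.84 on the 4 hypoxia arrays and above 11 on the others, and CITED2 is highest on hypoxia without knockdown.

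Among the brakes on growth and the mitochondrial genes, 4 of 6 rose on hypoxia. NDRG1, a stress-responsive gene linked to growth restraint, had the largest rise averaged over the 2 days without knockdown, while ANKRD37 rose more on day 1 and on both days with knockdown. NDRG1 read 9.33 untreated, 11.61 and 11.96 on hypoxia days 1 and 2 (4.84-fold and 6.18-fold), and 10.15 and 12.31 with knockdown. All 4 hypoxia values were above the 10 others, which reached at most 9.96. ARRDC3, an alpha-arrestin that sorts membrane receptors, read 9.97 untreated, 11.09 and 11.25 on hypoxia (2.17-fold and 2.41-fold), and 10.25 and 11.99 with knockdown. CCNG2, an unconventional cyclin linked to cell cycle arrest, read 8.53 untreated, 9.66 and 9.91 on hypoxia (2.18-fold and 2.59-fold), and 9.00 and 10.05 with knockdown.
In both genes the 4 hypoxia arrays again had the 4 highest values. DDIT4, an inhibitor of mTORC1 also known as REDD1, read 7.67 untreated, 8.50 and 8.29 on hypoxia (1.77-fold and 1.53-fold), and 7.24 and 9.13 with knockdown. FAM162A, a mitochondrial protein linked to cell death, was 2.11-fold above the untreated array on day 1 and 1.44-fold on day 2, short of the rule. It read 8.56 untreated, 9.63 and 9.08 on hypoxia, and 9.74 and 9.29 with knockdown. WSB1, the substrate receptor of a ubiquitin ligase, was 1.46-fold and 1.11-fold above the untreated array.

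Among the secreted factors and receptors, 3 of 4 rose. PLAUR, the receptor of urokinase, read 9.59 untreated, 10.48 and 10.83 on hypoxia (1.86-fold and 2.36-fold), and 10.26 and 10.08 with knockdown. EFNA1, a membrane-bound ligand of Eph receptors, rose 1.75-fold and 1.89-fold. ADM, which encodes the vasodilator adrenomedullin, rose 1.61-fold and 1.84-fold. VEGFA, the main angiogenic factor among HIF targets, read 9.57 untreated and 10.11 and 10.14 on hypoxia. These are 1.45-fold and 1.48-fold above the untreated array and so just under the rule, which ADM and EFNA1 passed. With knockdown VEGFA read 9.27 and 10.27.

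Of the 8 transcription regulators, 3 rose. BHLHE40, a repressor that also acts in the circadian clock, read 10.25 untreated, 11.48 and 11.41 on hypoxia (2.34-fold and 2.24-fold), and 10.04 and 12.10 with knockdown. ZNF292, a zinc finger gene, read 9.22 untreated, 10.25 and 10.22 on hypoxia (2.05-fold and 2.00-fold), and 10.02 and 10.95 with knockdown. MXI1, which partners MAX and opposes MYC, rose 1.53-fold and 2.04-fold. BHLHE41, RORA, MAFF, PER1 and ZNF395 did not pass the rule, with differences averaged over the days from 0.01 to 0.39.

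The remaining targets rose in 4 of 6 cases. INSIG2, which holds the SREBP precursors in the endoplasmic reticulum, read 8.93 untreated, 10.31 and 10.03 on hypoxia (2.60-fold and 2.14-fold), and 10.35 and 10.23 with knockdown. ERO1A, the oxidase that forms disulfide bonds in that compartment, read 9.79 untreated, 10.80 and 10.80 on hypoxia (2.01-fold on each day), and 10.69 and 11.30 with knockdown. For both, the 4 hypoxia arrays held the 4 highest values. ANKRD37, a small ankyrin repeat protein, read 7.79 untreated, 10.36 and 9.91 on hypoxia (5.94-fold and 4.36-fold), and 9.47 and 10.84 with knockdown, against at most 8.73 on the 10 other arrays.
ANKZF1, which releases nascent chains from stalled ribosomes, read 7.47 untreated, 8.61 and 8.52 on hypoxia (2.20-fold and 2.07-fold), and 6.72 and 8.20 with knockdown. Its 2 values without knockdown were the highest of 14, while day 1 with knockdown was the second lowest. RAB20, a small GTPase, and NARF differed by 0.03 and 0.43 averaged over the days.

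The 11 genes below the filter have mean levels under 5.90, and 9 of them stayed under it on every array. Their levels ranged over 3.48 to 4.17 for FLT1, 5.05 to 5.75 for EFNA3, 4.10 to 4.83 for STC1, 4.35 to 5.29 for STC2 and 4.20 to 5.09 for LOX. The ranges were 4.94 to 5.72 for CA12, 5.25 to 6.18 for BNIP3, 4.58 to 5.35 for TXNIP, 4.54 to 5.10 for VLDLR, 5.01 to 5.67 for PPFIA4 and 4.55 to 6.68 for SPAG4. SPAG4, a protein of the nuclear envelope, read 5.60 untreated, 6.31 and 6.36 on hypoxia (1.64-fold and 1.69-fold), and 5.64 and 6.35 with knockdown. It is the 1 dim gene that passed the rule on hypoxia, so that without the filter 16 of 41 rose, against 2.49% of all genes. Its highest value, 6.68, was on day 4 of 4-OHT. The mitophagy receptor BNIP3, the other that reached 5.90 on any array, was 1.45-fold and 1.25-fold above the untreated array on hypoxia. For the remaining 9 an absent transcript and a poor probe set cannot be told apart. In the neighbouring lists that are not part of the 44, 6 of 16 glycolytic targets and 4 of 7 oxygen-dependent dioxygenases above the filter rose on hypoxia and 0 fell. Of all genes above the filter 3.02% rose and 1.95% fell.

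**Figure D2:**
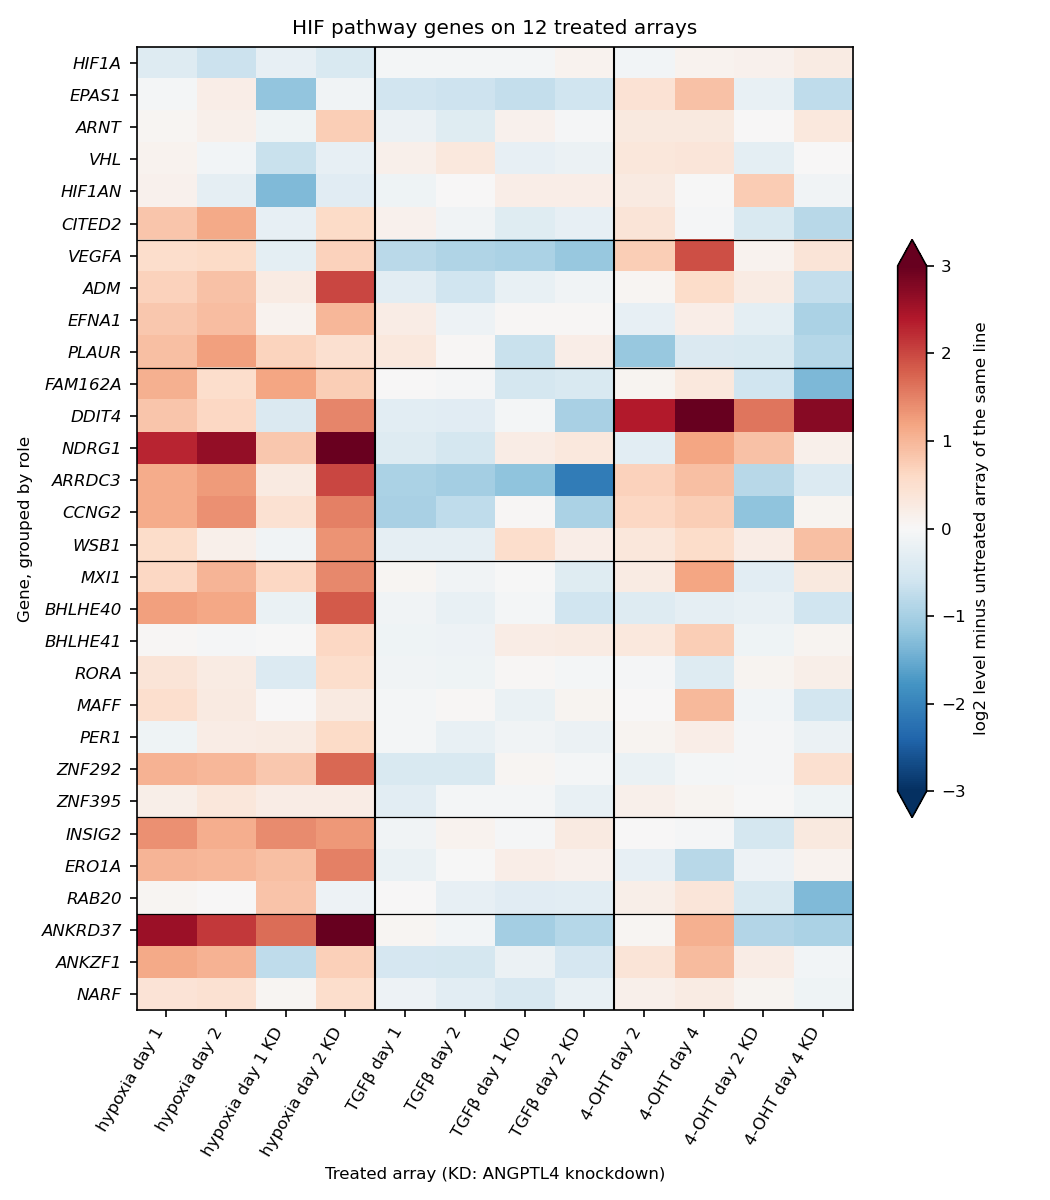
Difference in log2 level between each of the 12 treated arrays and the untreated array of the same line (colour, ending at 3 either way) for the 30 genes above the filter, grouped by role in the order subunits and regulators, secreted factors and receptors, growth and mitochondria, transcription, lipid and membrane, and others. NDRG1 and ANKRD37 stand out on hypoxia, DDIT4 on 4-OHT, and VEGFA, ARRDC3 and CCNG2 are below the untreated array on TGFβ without knockdown.

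On TGFβ no listed gene rose, and 3 fell. VEGFA, ARRDC3 and CCNG2 were at least 1.5-fold below the untreated parental array on both days, 3 of 30 against 3.27% of all genes, and 0 of 30 rose, against 2.47%. VEGFA read 8.78 and 8.67 on days 1 and 2 of TGFβ, against 9.57 untreated, and 8.62 and 8.43 with knockdown. ARRDC3 read 9.02 and 8.95, against 9.97 untreated, and 8.78 and 7.87 with knockdown. CCNG2 read 7.57 and 7.77, against 8.53 untreated, and 8.56 and 7.57 with knockdown, so that its day 1 value with knockdown reached the untreated one. All 3 lie above the untreated array on hypoxia, VEGFA there by less than 1.5-fold, and both comparisons share that 1 untreated array. By any margin 24 of the 30 lay above it on both hypoxia days, against 3771 of all 11050 genes.
These counts turn on the scale of the 2 dimmer arrays. On the deposited values 16 of 30 fell and 0 rose, against 32.3% and 0.452% of all genes. With each array centred on its median, 0 fell and 1 rose, against 1.86% and 22.5% of all genes. The median difference of all genes on TGFβ was 0.01 after quantile normalization, -0.46 as deposited and 0.35 after centring. The mean differences of VEGFA were -0.85, -1.12 and -0.31 on these 3 scales, those of ARRDC3 -0.99, -1.22 and -0.40, and those of CCNG2 -0.87, -1.34 and -0.52.
The TGFβ arrays with knockdown have no such offset. On them EPAS1, VEGFA, ARRDC3 and ANKRD37 were at least 1.5-fold below the untreated array on both days, 4 of 30 against 3.74% of all genes, and 0 of 30 were above it, against 0.968%. EPAS1 read 9.62 and 9.58 on TGFβ and 9.48 and 9.61 with knockdown, against 10.20 untreated. ANKRD37 read 7.85 and 7.71 without and 6.77 and 6.94 with knockdown, against 7.79.
The other regulators read as follows on TGFβ. HIF1A read 11.02 and 11.03, and 11.04 and 11.20 with knockdown. ARNT read 8.60 and 8.41, and 8.91 and 8.74 with knockdown. VHL read 6.66 and 6.82, and 6.26 and 6.35 with knockdown, all within 1.5-fold of the untreated value as are those of HIF1A and ARNT. HIF1AN read 6.28 and 6.41, and 6.60 and 6.60 with knockdown, and CITED2 7.94 and 7.73, and 7.47 and 7.59.
On the deposited scale these genes were all lower on TGFβ without knockdown than on the untreated array. The differences on days 1 and 2 were -0.87 and -0.74 for HIF1AN, which is among the 16 that fell there, and -0.52 and -0.71 for ARNT. They were -0.53 and -0.36 for VHL, -0.35 and -0.61 for CITED2, and -0.29 and -0.18 for HIF1A.

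Hypoxia could be set against TGFβ without the untreated array, because both stimuli were measured on the same days with and without knockdown. Over these 4 matched pairs, limma's test (Benjamini-Hochberg over 11050 genes) called 8 of the 30 genes higher on hypoxia, against 1.00% of all genes, and 0 lower, against 1.53%. They were ANKRD37, ARRDC3, NDRG1, ZNF292, VEGFA, INSIG2, FAM162A and ERO1A. In all, 27 of the 30 were on the higher side, and 19 of them had an unadjusted p under 0.05, as did 8.73% of all genes. The median difference was 0.78 for the 30 and -0.01 for all genes.
ANKRD37 had the largest difference, 2.83 (SE 0.28, adjusted p = 0.0189 by limma), with 2.51 and 2.20 in the day 1 and day 2 pairs without knockdown and 2.70 and 3.90 in those with it. In ARRDC3 the difference was 2.49 (SE 0.41, adjusted p = 0.0429 by limma), with 2.08 and 2.29 in the day 1 and day 2 pairs without knockdown and 1.47 and 4.11 in those with it. For NDRG1 it was 2.27 (SE 0.40, adjusted p = 0.0474 by limma), with 2.65 and 3.16 in the day 1 and day 2 pairs without knockdown and 0.60 and 2.66 in those with it. Each of the 3 was higher on hypoxia in 4 of 4 pairs, and in each the pairs differed among themselves by at least 1.70 on the log2 scale.
ZNF292 differed by 1.36 (SE 0.20, adjusted p = 0.0363 by limma) and VEGFA by 1.33 (SE 0.21, adjusted p = 0.0397). The difference of INSIG2 was 1.24 (SE 0.15, adjusted p = 0.0258 by limma), with 1.48 and 0.98 in the day 1 and day 2 pairs without knockdown and 1.46 and 1.03 in those with it, the narrowest spread of the 8. FAM162A, at 1.14 (SE 0.20, adjusted p = 0.0475 by limma), and ERO1A, at 1.08 (SE 0.16, adjusted p = 0.0383), complete the 8, and all were higher in 4 of 4 pairs. VEGFA is the 1 of the 8 that lay under 1.5-fold above the untreated array on hypoxia on both days and more than 1.5-fold below it on TGFβ.
CCNG2 was just outside, at 1.78 (SE 0.34, adjusted p = 0.0518 by limma). HIF1A differed by -0.42 (SE 0.14, adjusted p = 0.164 by limma), lower on hypoxia in 4 of 4 pairs and past the threshold neither way. VHL and HIF1AN were the other 2 on the lower side, at -0.23 and -0.53, and neither passed the threshold. On the deposited values VHL was on the higher side, at 0.13, and HIF1AN at -0.11, so that 28 were higher, and with arrays centred on their medians 24 were.
The calls depend on a single pair at a time. Without the day 1 pair with knockdown, which holds the array that stands apart, 23 genes were called higher and 1 lower, beside 8.59% of all genes higher and 9.81% lower. Without any other pair, 0 of the 30 and 0 of all genes were called. On the deposited values 11 were called higher, beside 1.67% of all genes higher and 0.462% lower. With arrays centred on their medians 8 were called higher and 1 lower (HIF1A, adjusted p = 0.0382), beside 0.986% and 9.74% of all genes.

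**Figure D3:**
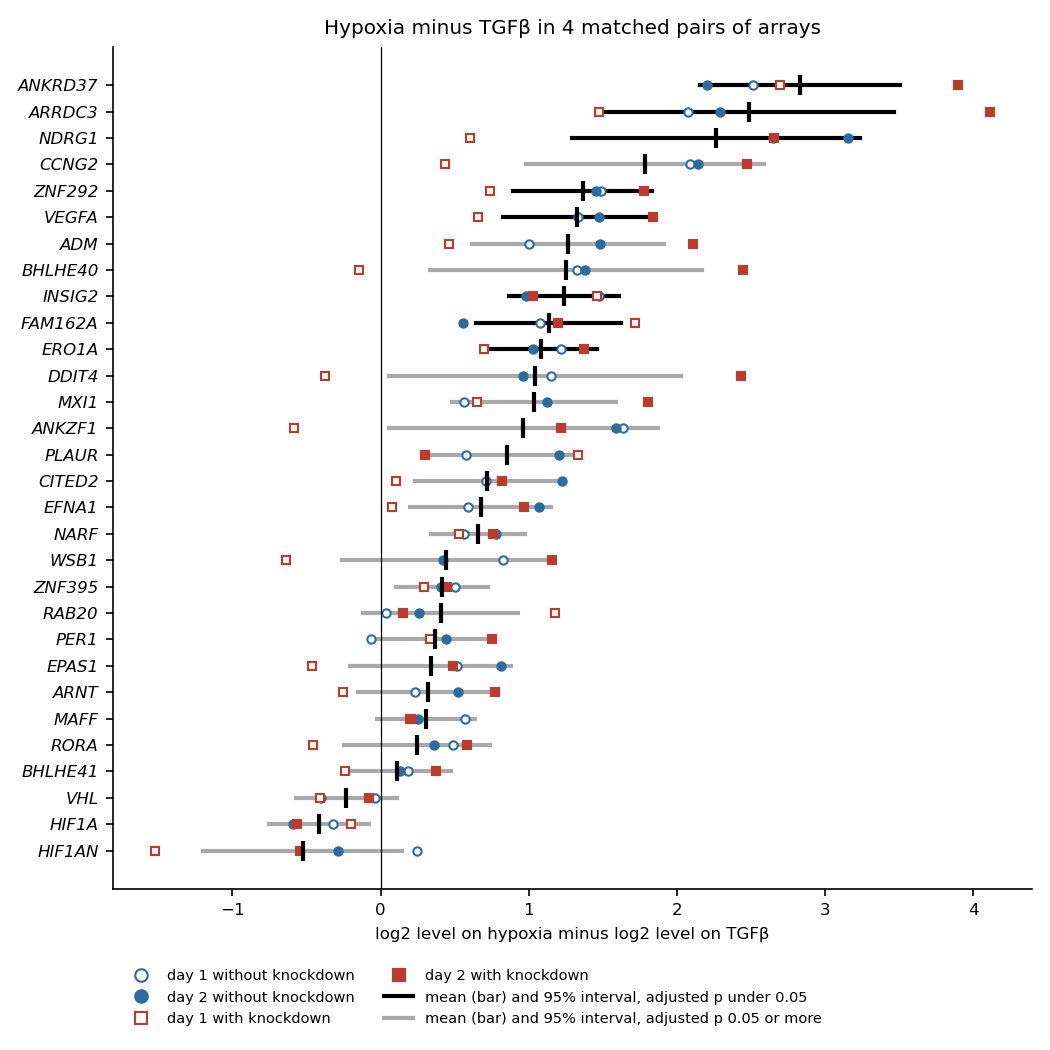
Difference in log2 level between hypoxia and TGFβ for the 30 genes above the filter in each of 4 pairs matched by day and knockdown (points), with limma's mean (bar) and 95% interval (line, black where the adjusted p was under 0.05). ANKRD37, ARRDC3 and NDRG1 have the largest means, 2.83, 2.49 and 2.27, and the day 1 pair with knockdown is the lowest of the 4 points for NDRG1, CCNG2, ZNF292 and VEGFA.

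On 4-OHT, 4 of the 30 genes rose over the untreated Snai1ER array on both days, against 2.33% of all genes, and 0 fell, against 1.21%. No parental array was given 4-OHT, so 4-OHT itself and the Snai1 fusion protein cannot be told apart here. DDIT4 read 4.92 untreated and 7.30 and 8.46 on days 2 and 4 of 4-OHT. The untreated value lies under the filter level of 5.90, and set against that level the rises were at least 2.64-fold and at least 5.92-fold. Its untreated Snai1ER value was the lowest of the 14 arrays, and the untreated parental array read 7.67. VEGFA read 8.05 untreated and 8.78 and 9.97 on 4-OHT, 1.66-fold and 3.80-fold higher. ARRDC3 read 7.93, 8.62 and 8.83, and CCNG2 7.76, 8.38 and 8.50, rises of 1.54-fold to 1.87-fold.
VEGFA, ARRDC3 and CCNG2, which fell on TGFβ after quantile normalization, rose on 4-OHT, each against its own line's single untreated array. With arrays centred on their medians 0 of the 30 fell on TGFβ. How many of all genes fell on TGFβ and rose on 4-OHT was not counted. At 2-fold on both days DDIT4 alone rose, against 0.561% of all genes.
Several further targets were higher on day 4 than on day 2. At least 1.5-fold higher were VEGFA, PLAUR, DDIT4, NDRG1, MXI1, MAFF and ANKRD37, 7 of 30 against 6.83% of all genes. ERO1A was at least 1.5-fold lower, 1 of 30 against 9.52% of all genes. NDRG1 went from 8.47 to 9.96, against 8.78 untreated. ANKRD37 went from 7.72 to 8.73, against 7.67 untreated. On day 4 alone, 11 of the 30 were at least 1.5-fold above the untreated array, against 10.8% of all genes. PLAUR was below it on both days, at 8.40 and 9.13 against 9.55.
INSIG2 and ZNF292, which rose on hypoxia, stayed at their untreated level here. INSIG2 read 7.86 untreated, 7.86 and 7.83 on 4-OHT, and 7.34 and 8.16 with knockdown. ZNF292 read 8.69 untreated, 8.49 and 8.63 on 4-OHT, and 8.65 and 9.17 with knockdown. BHLHE40 read 10.01 untreated and 9.63 and 9.74 on 4-OHT, and ANKZF1 6.73, 7.13 and 7.69.
Of the subunits, EPAS1 read 8.55 untreated and 8.99 and 9.42 on 4-OHT (1.36-fold and 1.83-fold), and 8.32 and 7.79 with knockdown. HIF1A read 11.11 untreated, 11.02 and 11.21 on 4-OHT, and 11.23 and 11.35 with knockdown. ARNT read 8.47 untreated and 8.76 and 8.76 on 4-OHT. VHL read 6.19, 6.53 and 6.55, HIF1AN 6.46, 6.73 and 6.45, and CITED2 8.07, 8.46 and 8.04 on the same 3 arrays, none past 1.5-fold.

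**Figure D4:**
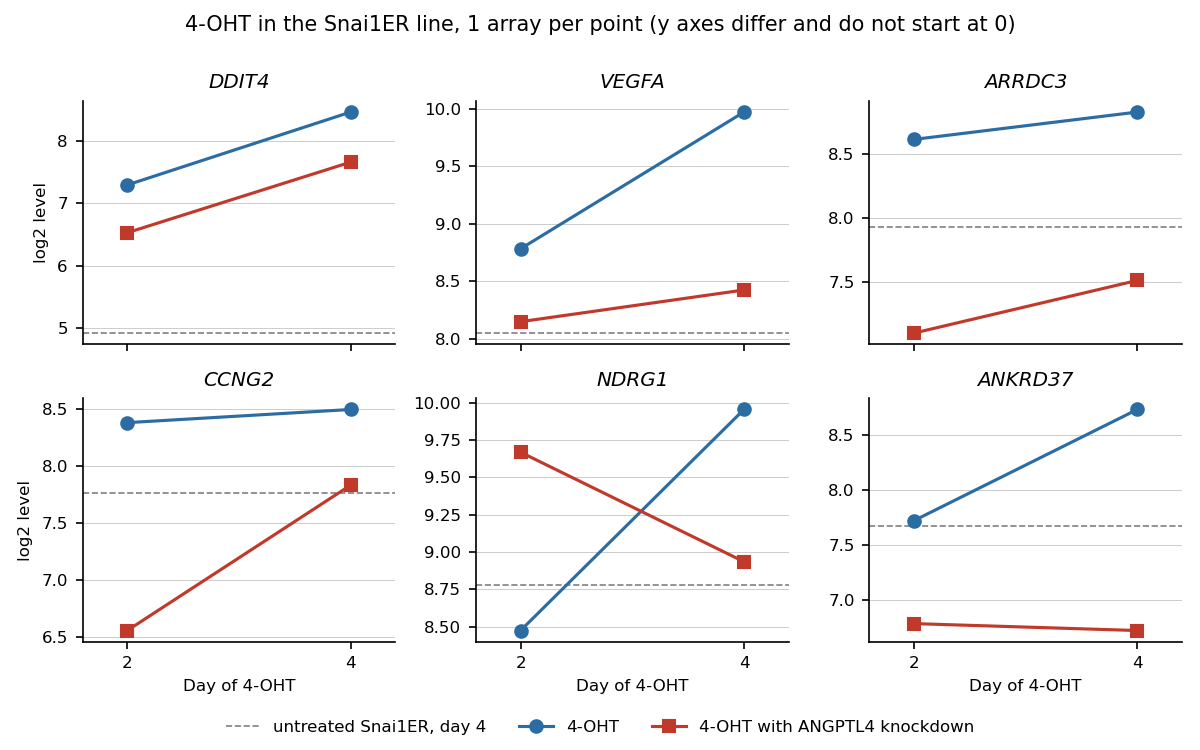
Levels (log2, y axes not starting at 0) of 6 genes on days 2 and 4 of 4-OHT in the Snai1ER line, without (blue) and with (red) ANGPTL4 knockdown, beside the untreated Snai1ER array (dashed line), with 1 array per point. DDIT4 is above the untreated array on all 4 arrays, and VEGFA reaches 9.97 on day 4 without knockdown and 8.42 with it.

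The untreated lines already differed in these genes. EPAS1, VEGFA, DDIT4, ARRDC3, CCNG2, WSB1, RORA, INSIG2 and ANKZF1 were at least 1.5-fold lower on the untreated Snai1ER array than on the untreated parental one. These are 9 of 30, against 8.13% of all genes. RAB20 was at least 1.5-fold higher, 1 of 30 against 5.09% of all genes. EPAS1 read 8.55 against 10.20, DDIT4 4.92 against 7.67, and ARRDC3 7.93 against 9.97. The 2 arrays also differ in day, 4 against 2, so line and day cannot be told apart here. All 4 genes that rose on 4-OHT are among the 9 lower ones, and the same overlap over all genes was not counted. Both comparisons share the untreated Snai1ER array, so a low value on it enters both. Of the 4 genes, VEGFA and DDIT4 rose on day 4 of 4-OHT past the untreated parental level, and ARRDC3 and CCNG2 did not.

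ANGPTL4 knockdown was tested over the 6 pairs of treated arrays. limma's test called 0 of the 30 genes, against 0.0905% of all genes higher and 0.787% lower. At an unadjusted p under 0.05, 6 of the 30 were lower and 1 was higher, against 14.3% and 4.77% of all genes. The 6 were CITED2, VHL, EPAS1, VEGFA, ARRDC3 and ANKRD37, and the 1 was ZNF292. CITED2 differed by -0.65 (SE 0.14, adjusted p = 0.0753 by limma) and VHL by -0.46 (SE 0.12, adjusted p = 0.114 by limma), and both were lower with knockdown in 6 of 6 pairs after quantile normalization. EPAS1, at -0.64 (SE 0.22, adjusted p = 0.170 by limma), was lower in 5 of 6. ANKRD37, at -0.79 (SE 0.30, adjusted p = 0.207 by limma), was lower in all but the hypoxia day 2 pair.
The scale matters here too, because the 2 dimmer arrays enter without knockdown. With arrays centred on their medians, 4 genes were called lower (EPAS1, VHL, VEGFA and CITED2), beside 10.6% of all genes lower and 0.181% higher. On the deposited values 0 were called, beside 0.0814% lower and 0.0452% higher. There VHL differed by -0.17 and was lower in 4 of 6 pairs, with both TGFβ pairs higher. CITED2 differed by -0.50 and was lower in 5 of 6, and EPAS1 by -0.55 in 4 of 6. The median difference of all genes was -0.06 after quantile normalization, 0.12 as deposited and -0.23 after centring.

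The pairs went different ways. On hypoxia day 1, 15 of the 30 genes were at least 1.5-fold lower with knockdown, against 22.2% of all genes, and the median difference was -0.58. On hypoxia day 2, 9 of the 30 were at least 1.5-fold higher, against 4.19% of all genes, and the median was 0.20. The day 1 array with knockdown is the one that stands apart, and its part in this difference was not tested. On TGFβ days 1 and 2 the medians were 0.03 and 0.05 after quantile normalization. At least 1.5-fold lower with knockdown were 2 and 3 of the 30, against 9.96% and 8.98% of all genes. At least 1.5-fold higher were 3 and 1, against 4.43% and 3.51%.
With knockdown, 7 genes were at least 1.5-fold above the untreated array on both hypoxia days, against 1.95% of all genes, and 0 below, against 5.80%. They were FAM162A, NDRG1, MXI1, ZNF292, INSIG2, ERO1A and ANKRD37. That array of reference has no knockdown, so hypoxia and knockdown together enter this difference. On day 2 alone 18 of 30 were at least 1.5-fold above the untreated array, against 8.45% of all genes. On day 1 alone 9 were above it by that much, against 13.6%, and 4 below, against 22.4%. By any margin, 13 of 30 were below it on day 1, against 53.9% of all genes. Between the 2 knockdown arrays, 20 of the 30 genes were at least 1.5-fold higher on day 2, against 21.5% of all genes, where the arrays without knockdown showed none. NDRG1 went from 10.15 to 12.31, BHLHE40 from 10.04 to 12.10, and DDIT4 from 7.24 to 9.13. Of the 15 genes that rose on hypoxia without knockdown, INSIG2, at 10.35 and 10.23, and PLAUR, at 10.26 and 10.08, were not higher on day 2. RAB20 was the 1 of the 30 that was at least 1.5-fold lower on day 2, against 17.2% of all genes.

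**Figure D5:**
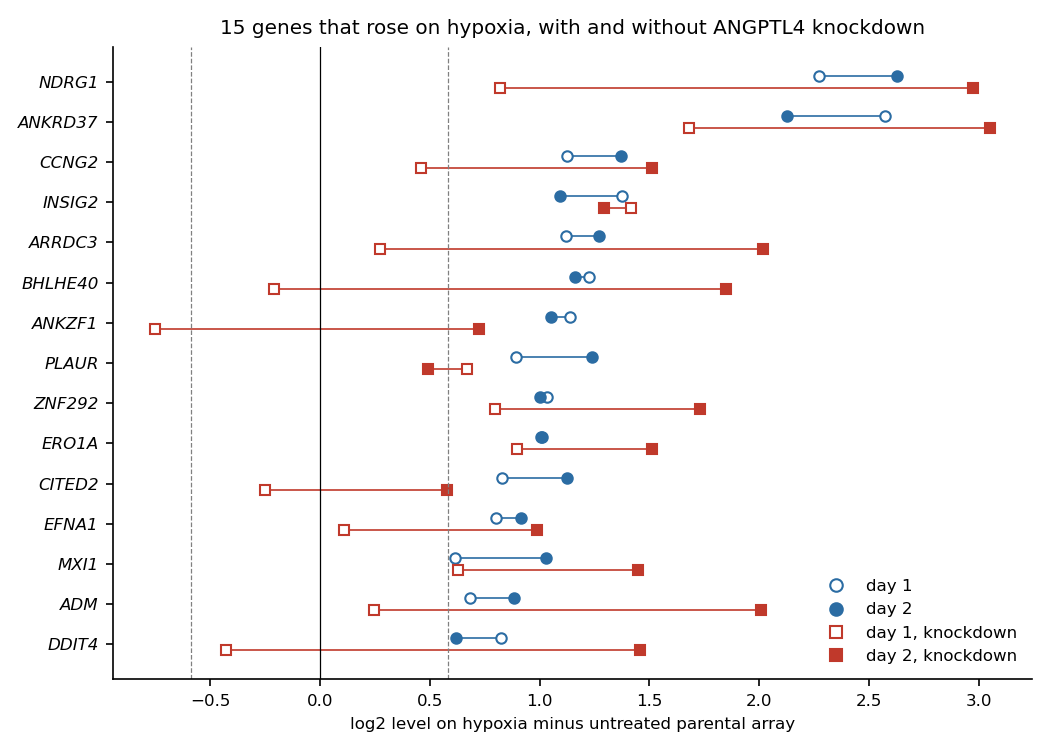
Difference in log2 level between each hypoxia array and the untreated parental array for the 15 genes that rose on hypoxia, on day 1 (open) and day 2 (filled), without (blue) and with (red) ANGPTL4 knockdown, with dashed lines at 1.5-fold. Without knockdown both days lie past the right dashed line for all 15, and with knockdown day 2 lies to the right of day 1 for 13 of them, INSIG2 and PLAUR being the exceptions.

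In the Snai1ER line both days pointed lower. With knockdown, 10 of the 30 genes were at least 1.5-fold lower on day 2 of 4-OHT, against 14.6% of all genes, and 16 on day 4, against 21.7%. The median difference was -0.17 on day 2 and -0.67 on day 4. ANKRD37 read 6.78 and 6.72 with knockdown, against 7.72 and 8.73 without it. VEGFA read 8.15 and 8.42 with knockdown and 8.78 and 9.97 without. ARRDC3 read 7.10 and 7.51 with knockdown and 8.62 and 8.83 without, so that it lay below the untreated 7.93 on both knockdown arrays. CCNG2 read 6.56 and 7.84 with knockdown and 8.38 and 8.50 without.
DDIT4 was lower with knockdown, at 6.53 and 7.66, but stayed above the untreated array. It was the 1 of 30 that rose with 4-OHT and knockdown together, against 1.77% of all genes, while FAM162A and ANKRD37 fell, 2 of 30 against 5.43%. NDRG1 was higher with knockdown on day 2 (9.67 against 8.47) and lower on day 4 (8.93 against 9.96).
Neither test of a difference between pairs called a gene. The knockdown difference in the 2 hypoxia pairs against the other 4, and in the 2 Snai1ER pairs against the 4 parental ones, each gave 0 of 30 members and 0% of all genes by limma. At an unadjusted p under 0.05 the first gave 2 higher (FAM162A and ANKRD37) and 1 lower (HIF1AN), and the second 5 lower (BHLHE41, RAB20, FAM162A, CCNG2 and MXI1), against 4.44%, 3.97% and 5.46% of all genes in these directions.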

How the data were processed

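Gene expression was measured in 14 samples, 1 GeneChip Human Gene 1.0 ST array each, after Trizol extraction and amplification with the NuGEN Applause WT-Amp ST system. The deposited values are log2 levels per probe set. The authors made them by RMA with Partek according to the submitters' processing notes (versions not given in the sources used here). Scanner files were not used here. The depth of an array cannot be counted, and their number limits the precision.

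The annotation gives 1 gene symbol for 19460 of 33297 probe sets, several for 1754 and no entry for 12083. Current symbols were found by gene ID for 19429, and probe sets of a gene were averaged. The log2 values were quantile normalized over the 14 arrays with limma 3.58.1 in R 4.3.3. Genes were kept when their mean reached the 40th percentile, a level of 5.90. Groups come from the sample titles and source names. A gene was called changed on single arrays when it differed at least 1.5-fold from the untreated array of its line in the same direction on both days, with no test. Hypoxia was set against TGFβ in 4 pairs (3 residual degrees of freedom), knockdown against none in 6 pairs (5), and 2 interactions of knockdown (4) were fitted, with limma's lmFit and eBayes, the pair as a block and Benjamini-Hochberg adjustment over 11050 genes at 0.05. The pairs come from the design, by treatment, day and knockdown, and their p-values measure only the spread between these arrays. The fits were tested on simulated data.

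Genes to be named with values, though not always on every array, were chosen by rule. They were the 8 genes with the largest hypoxia difference, the subunits and regulators, and the genes changed on TGFβ or 4-OHT. Up to 6 called by limma for each contrast were added, with the other genes by range and count. FAM162A, ERO1A, ADM, EFNA1 and others beyond this rule were picked with their values in view. The members and lists were chosen with earlier results of these data known. Alternatives covered the scale, the filter, the probe set of a gene, the fold, single days, a mean-variance trend, the fit without pairs and leaving out each pair. Subsets of pairs were added after the data were seen. Sequences are RefSeq's on GRCh38.p14.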

Additional observations from a re-analysis of the deposited data

Results flagged for a closer look

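In 5 of the 30 genes the knockdown difference passed 1.5-fold in opposite directions on the 2 hypoxia days, lower on day 1 and higher on day 2, as it did in either order in 2.54% of all genes. The difference between the days, each day being 1 pair of arrays, was not tested. It was 2.12 on the log2 scale for BHLHE40, 2.09 for DDIT4, 1.87 for WSB1, 1.81 for ANKRD37 and 1.59 for ARRDC3. In BHLHE40 knockdown lowered the level by -1.43 on day 1 and raised it by 0.69 on day 2, and in DDIT4 the values were -1.25 and 0.84. All 5 have the day 1 array with knockdown in common, whose genes had an SD of 0.719 about the average of the remaining arrays, and its part in these values was not tested.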

How the results depend on the processing

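No paired analysis by replicate number was possible because each condition has 1 array and the labels carry no replicate numbers. The pairs by treatment, day and knockdown were used instead, and without them 11 genes in place of 8 were called on hypoxia against TGFβ and 0 on knockdown. The count of genes changed on hypoxia was 14 to 16 under 7 of 8 alternatives and 9 at 2-fold. On TGFβ, 3 became 16 on the deposited values, 1 with arrays centred on their medians, 0 at 2-fold and 5 on day 2 alone. On 4-OHT, 4 became 1 at 2-fold and 12 on day 4 alone. On hypoxia with knockdown, 7 became 4 with centring, 2 at 2-fold, 13 on day 1 alone and 18 on day 2 alone. Leaving out each pair gave 0 to 24 calls on hypoxia against TGFβ, 0 to 0 on knockdown and 0 to 0 on both interactions. The 2 pairs with knockdown alone gave 0 calls and the 2 without it 25, beside 15.9% of all genes higher and 18.9% lower, alternatives added after seeing the data. Centring gave 4 calls on knockdown. The other alternatives left each count within 1.5 times its value. The scale also changed the direction of some genes. On hypoxia against TGFβ, VHL was on the higher side on the deposited values, at 0.13. With centring, ARNT, RORA and EPAS1 moved to the lower side of that comparison. On knockdown, HIF1AN, MAFF and ZNF395 moved to the higher side on the deposited values, at 0.21, 0.007 and 0.25. With centring, ARNT, ADM, HIF1A, RORA, INSIG2 and NDRG1 moved to the lower side on knockdown. The adjusted p of the 8 called genes reached 0.702 with the 2 knockdown pairs alone, which leave 1 residual degree of freedom. The causes of these changes were not tested. Of the 11 dim genes, 9 lay under the filter level on every array, and signal limits what they show.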
